A study of Mus musculus with 8 samples.

Results

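The proteasome subunit genes are the protein-coding genes whose symbols begin with Psma, Psmb, Psmc, Psmd, Psme, Psmf or Psmg followed by a digit, with the inducible subunits Psmb8 and Psmb9 left out of the set and described beside it. The name rule found 48 genes among the 54854 of the count table. RNA was sequenced from the whole pituitaries of 8 mice (C57BL/6N, 5 weeks old), 4 given the antibody AFS98 against CD115, the receptor for colony stimulating factor 1 on which most tissue macrophages depend, and 4 given rat IgG2a (clone 2A3) as isotype control. Both groups had the same schedule: 3 mg into the pregnant dam at embryonic day 6.5, then injections of the pups with 100 µg on postnatal day 2, with 150 µg on day 14 and, at 4 weeks, with 200 µg, with tissue taken 1 week after the last of 4 injections. Each group held 1 female (replicate 1) and 3 males. How many dams and litters contributed is not in the labels: litter and treatment cannot be told apart, and p-values measure the spread between these animals only.

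The 26S proteasome is the protease that degrades proteins tagged with ubiquitin. Its 20S core is a barrel of alpha rings, which gate entry, around beta rings, which carry the protease sites; the 19S regulatory particle docks on the barrel, binds and removes ubiquitin, and unfolds the substrate with a ring of ATPases. Interferon replaces the catalytic beta subunits by inducible ones and raises the PA28 activator, which matters for peptides shown on MHC class I, and the pituitary is a secretory gland whose cells make large amounts of hormone. By these roles the set held 17 core genes, 17 regulatory genes, 5 activators, 1 inhibitor (Psmf1), 7 assembly chaperones, and Psmc3ip, which shares the name stem but encodes a cofactor of meiotic recombination and is no proteasome subunit. The genes lay on 16 chromosomes.

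Total counts ran from 23289819 to 36218096 per library, and the 48 genes took 0.282% to 0.338% of them. Growth hormone alone took 14.2% to 20.6% in anti-CD115 libraries and 13.5% to 23% in isotype control libraries, and none of 9 markers of pituitary endocrine cells passed the test between the groups. The summed level of 15 macrophage markers was 19.02 to 66.4 CPM (counts scaled to a common library size with TMM factors) in anti-CD115 glands and 266 to 374 CPM in isotype control glands; all 15 fell, by a median log2 fold change of -2.75, and none was at 0 in any library. The summed level of 5 endothelial markers was 247 to 282 CPM in anti-CD115 glands. In isotype control glands it was 164 CPM in replicate 4 and 232 to 240 CPM in the others. All 5 had a log2 fold change above 0 and 3 an unadjusted p below 0.05 in edgeR, with 0 of 5 past the test. For 5 posterior lobe markers the sum was 139 to 216 CPM in anti-CD115 glands and 70.0 to 222 CPM in isotype control glands. Isotype control replicate 4 was the lowest for that sum. Of these markers 0 of 5 passed the test, as did 0 of 5 red cell markers. In bulk tissue, fewer cells of a type and less RNA per cell cannot be told apart.

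Of the 48 genes, 46 passed the filter on low counts. Psma8, the testis form of an alpha subunit, reached 0.117 to 0.210 CPM in anti-CD115 glands and 0.140 to 0.336 CPM in isotype control glands. Psmb11, the thymus-specific catalytic subunit, had 0 counts in all 8 libraries, where 3 counts would be 0.0828 to 0.129 CPM. Both tissue-restricted forms were thus at or near the floor in the pituitary, and neither was tested.

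Levels between genes are compared in FPKM, the deposited values per kilobase of gene and scaled by library size, averaged over all 8 libraries. The median of the 46 tested genes was 22.6 FPKM, against 3.83 FPKM for all 17723 genes tested; Psmc3ip (2.31 FPKM), Psmg3 (2.32 FPKM) and Psmd9 (3.47 FPKM) lay below that median of all genes. The highest level was that of Psmb2, a structural beta subunit, at 71.7 ± 5.50 FPKM in anti-CD115 glands and 78.8 ± 1.74 FPKM in isotype control glands (SD, n = 4 each). The lowest was that of Psmc3ip, at 2.34 ± 0.355 and 2.27 ± 0.256 FPKM in anti-CD115 and isotype control glands.

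Within the set, the 31 constitutive subunits of the core and the regulatory particle, which assemble in fixed proportions, spanned a 7.57-fold range of FPKM. Of these, 25 lay between 15 and 50 FPKM. The regulatory subunits Sem1 and Adrm1 fall outside the name rule and are not among the 31. Among the alpha subunits, Psma6 was highest (61.9 FPKM) and Psma3 lowest (17.6 FPKM). Among the constitutive catalytic subunits, Psmb6 (caspase-like site) averaged 48.6 FPKM, Psmb5 (chymotrypsin-like site) 47.1 FPKM and Psmb7 (trypsin-like site) 15.1 FPKM. The inducible counterpart of Psmb7, Psmb10, averaged 12.2 FPKM, against 4.63 FPKM for Psmb8 and 2.10 FPKM for Psmb9. Psmb3 was the lowest structural beta subunit at 16.9 FPKM.

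In the regulatory particle, Psmc5 led the ATPases at 58.4 FPKM and Psmc6 was lowest at 17.4 FPKM. Psmd2, with Psmd1 a large scaffold of the base, averaged 60.2 FPKM, and Psmd1 averaged 18.6 FPKM. In the lid, Psmd7 was highest at 41.8 FPKM and Psmd11 lowest at 9.95 FPKM. Among the activators, Psme1 stood at 31.4 FPKM and Psme4, the PA200 activator, at 8.29 FPKM; the inhibitor Psmf1 averaged 7.40 FPKM. The chaperones ran from 13.9 FPKM for Psmg4 to 2.32 FPKM for Psmg3. FPKM divides by the deposited gene length, 555 to 8382 bases over the 48 genes, so it also carries how that length was set.

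**Figure D1:**
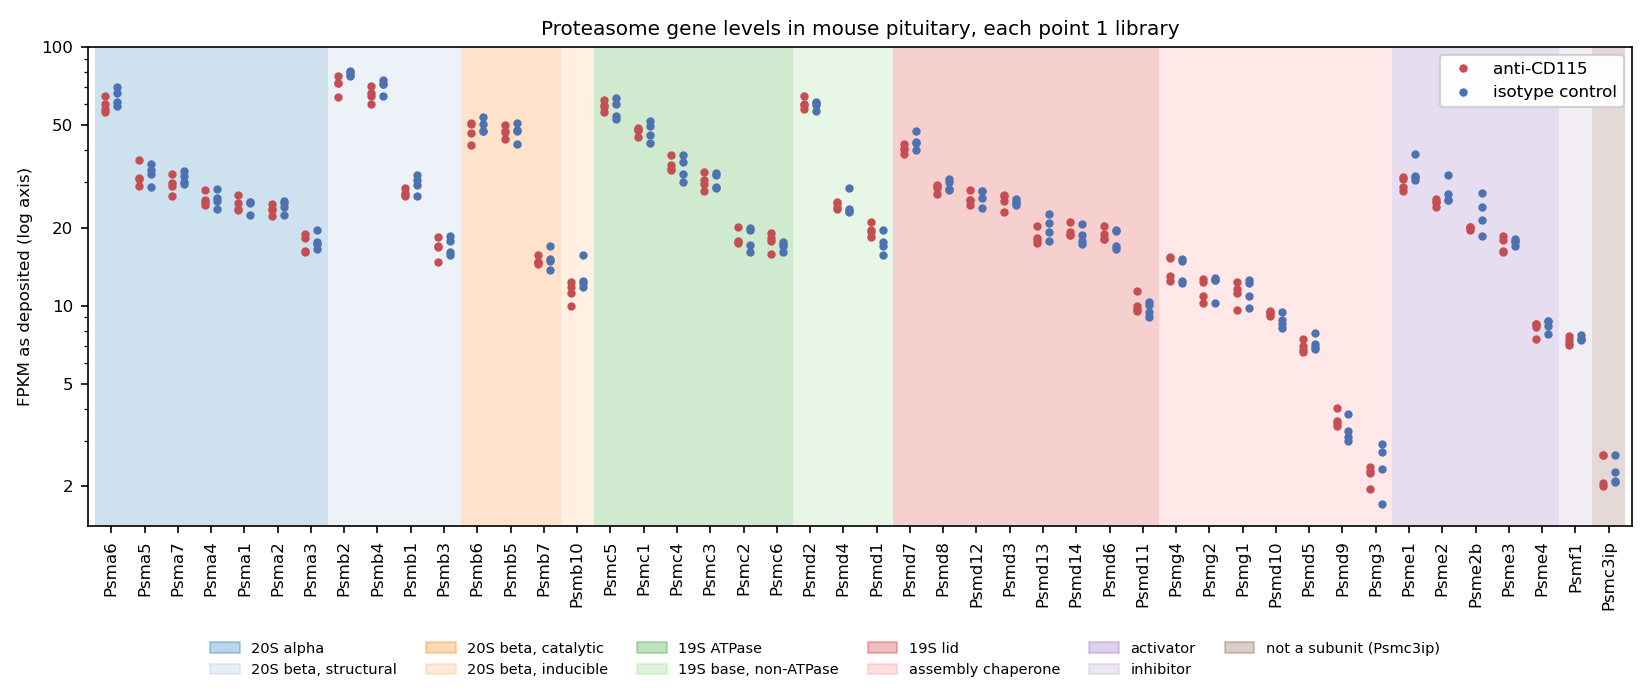
Level of each tested proteasome gene in FPKM on a log axis, grouped by class, with 1 point per library and the anti-CD115 libraries listed first. Psmb2 is highest and Psmc3ip lowest, and the points of the groups overlap for every gene.

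The comparison asked whether depleting macrophages through CD115 changed proteasome gene expression in the gland. No gene of the set passed the test: 0 of 46 rose and 0 of 46 fell at an adjusted p below 0.05 in edgeR's quasi-likelihood test with a term for sex, against 0.869% of all genes (0.0395% rose and 0.829% fell). At an unadjusted p below 0.05 the count was also 0 of 46, where 10.3% of all genes passed, and DESeq2 called 0. In no gene were the groups free of overlap, against 5.77% of all genes. The smallest p was 0.0584, for Psmd1, with an adjusted p of 0.508.

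The errors were small, which bounds what could have been missed. The median standard error of the log2 fold change was 0.08 in the set, 0.13 over all genes and 0.10 over the 10519 other genes tested within the range of FPKM of the set. Those other genes had a median of 7.75 FPKM, against 22.6 FPKM in the set, so they were not matched for level. The median coefficient of variation in CPM was 6.15% in anti-CD115 glands and 7.91% in isotype control glands, against 11.4% and 13.6% over all genes and 8.48% and 10.4% over those other genes in the same range of FPKM. The 95% interval lay within a 1.3-fold change either way for 42 of 46 genes, and within 1.5-fold for all 46. Over the 31 constitutive subunits in the set the intervals reached from 20.8% lower (-20.8%) to 25.9% higher.

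The log2 fold changes of anti-CD115 over isotype control ran from -0.21 (Psmb10) to 0.16 (Psmd1), with 33 of 46 within 0.10 of 0. Their median was -0.03, against 0.00 over all genes, and 32 of 46 were below 0, against 49.1% of all genes. That split was 32 of 46 with RLE size factors and 31 of 46 with DESeq2. With library totals in place of TMM factors, 19 of 46 were below 0, against 40.3% of all genes. The median of the set was then 0.01, against 0.04 over all genes. The number below 0 was 23 of 46 without isotype control replicate 1, without isotype control replicate 3, without anti-CD115 replicate 4, and among males only. It was 24 of 46 without anti-CD115 replicate 1. It was 39 of 46 without anti-CD115 replicate 2 and 37 of 46 without isotype control replicate 2.

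**Figure D2:**
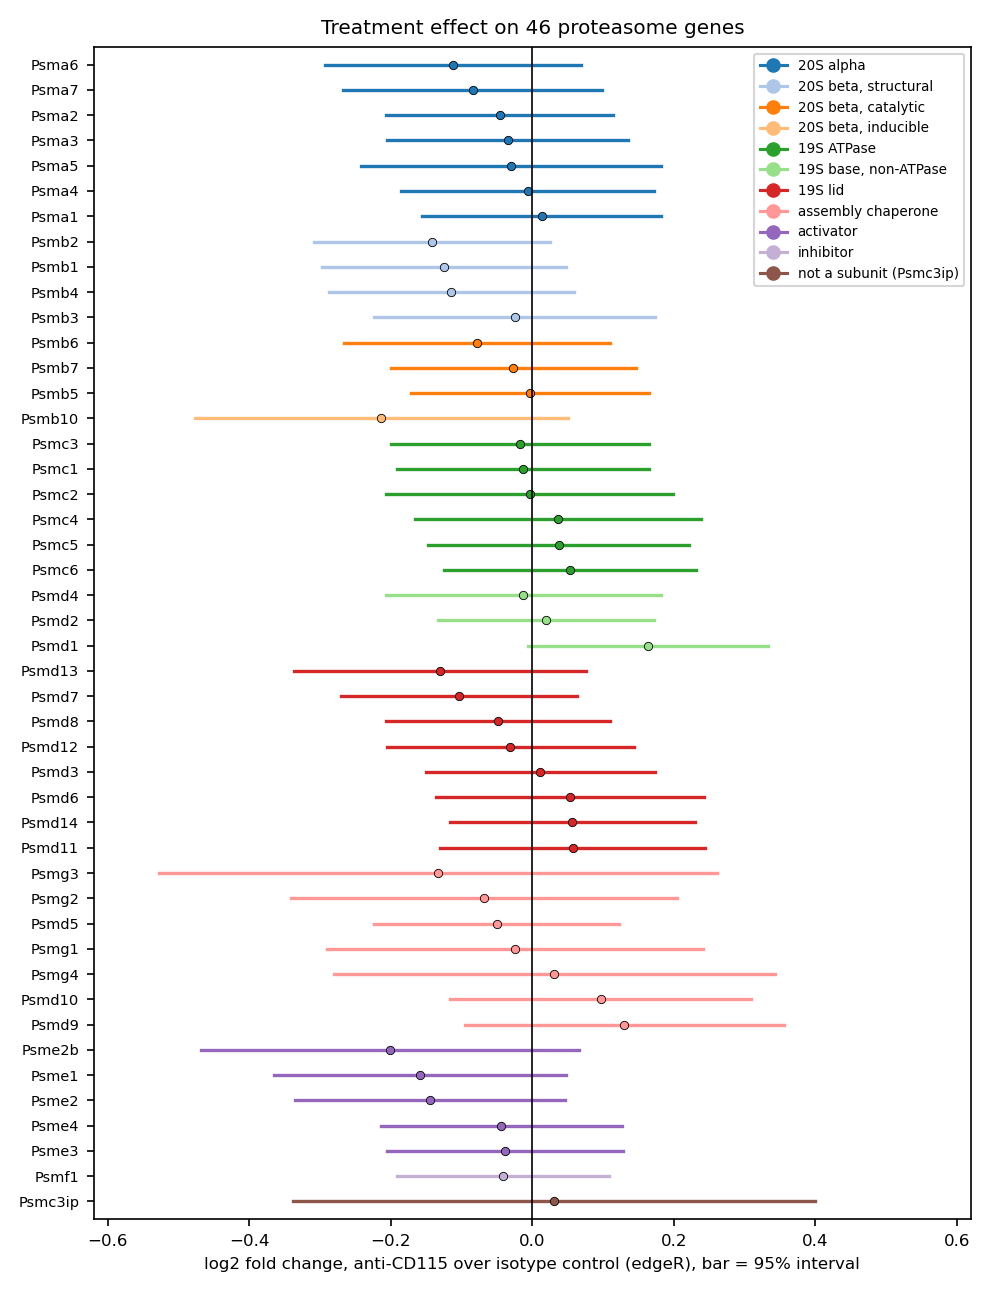
Log2 fold change of anti-CD115 over isotype control for each tested gene with its 95% interval, ordered by class, from edgeR's quasi-likelihood fit. Psmd1 lies farthest right at 0.16 and Psmb10 farthest left at -0.21, and no gene passed an adjusted p of 0.05.

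In the 20S core, 14 of 15 tested genes had a log2 fold change below 0 and Psma1, an alpha subunit, was at 0.01; none passed the test. Psmb2 had the smallest p of the core: its levels were 88.2, 93.5, 87.6 and 77.4 CPM in anti-CD115 glands and 97.5, 96.8, 95.1 and 93.1 CPM in isotype control glands. Anti-CD115 replicate 4 was the lowest and the groups overlapped at a single library, anti-CD115 replicate 2. The log2 fold change was -0.14 ± 0.08 (SE), with an edgeR adjusted p of 0.555. The structural beta subunits had a median log2 fold change of -0.12, the alpha subunits -0.04 and the constitutive catalytic subunits -0.03.

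The catalytic subunits lay level between the groups. Psmb5, the site that proteasome inhibitor drugs bind first, had 44.99, 42.9, 42.6 and 39.8 CPM in anti-CD115 glands and 46, 38.1, 43.4 and 43.3 CPM in isotype control glands. Its groups overlapped throughout, and its 95% interval ran from 11.2% lower (-11.2%) to 12.1% higher. Psmb6 had a log2 fold change of -0.08 ± 0.09 and Psmb7 of -0.03 ± 0.08 (SE).

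Of the 19S regulatory genes in the set, 9 had a log2 fold change above 0 and 8 below, with a median of 0.01. Sem1 and Adrm1, regulatory subunits outside the name rule, were at -0.19 and -0.06. Psmd1, a base scaffold, had 144, 153, 135 and 141 CPM in anti-CD115 glands and 143, 129, 116 and 124 CPM in isotype control glands. The 3 male control libraries were below every anti-CD115 library, and the female control overlapped. The log2 fold change was 0.16 ± 0.08 (SE; edgeR adjusted p = 0.508). Part of the deposited gene of Psmd1 is shared with other genes: 4.14% of its exon bases with Gm21972 and 3.47% with Htr2b, on the opposite strand.

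Its partner Psmd2 had 235, 263, 243 and 244 CPM in anti-CD115 glands and 250, 230, 245 and 246 CPM in isotype control glands, with full overlap and a log2 fold change of 0.02 ± 0.07 (SE). Psmd4, the ubiquitin receptor of the base, had 70.3, 71.1, 67.8 and 66.8 CPM in anti-CD115 glands and 66.9, 65.2, 81.5 and 64.8 CPM in isotype control glands. Isotype control replicate 3 alone lay above all other libraries for Psmd4; the log2 fold change was -0.01 with that library and 0.07 without it. Psmd14, the deubiquitinase of the lid, had a log2 fold change of 0.06 ± 0.08 (SE). The 6 ATPases had a median log2 fold change of 0.02 and the 8 lid genes of -0.01.

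The constitutive genes were summed within each library, 14 of the core and 17 regulatory. Psma8, Psmb10 and Psmb11 were left out of the core sum, and the regulatory sum does not hold Sem1 or Adrm1. The core genes came to 1058 ± 61.1 CPM in anti-CD115 glands and 1113 ± 62.7 CPM in isotype control glands. The regulatory genes came to 1553 ± 68.8 CPM in anti-CD115 glands and 1541 ± 90.4 CPM in isotype control glands (SD, n = 4 each). Divided within the library, which removes the scaling, the core sum over the regulatory sum was 0.700, 0.686, 0.679 and 0.659 in anti-CD115 glands and 0.715, 0.715, 0.719 and 0.739 in isotype control glands. The 4 anti-CD115 values lay below the 4 isotype control values. The gap was narrow, and in FPKM the highest anti-CD115 value was 1.038 and the lowest isotype control value 1.039. Leaving Psmd1 out of the sum gave a highest anti-CD115 value of 0.773 and a lowest isotype control value of 0.774; leaving out Psmb2 as well gave 0.709 and 0.712. The ratio was formed after the values were seen and is a description with no test.

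The assembly chaperones showed no call either. The Psmg genes, which build the core, and Psmd5, Psmd9 and Psmd10, which build the base, had log2 fold changes from -0.13 (Psmg3) to 0.13 (Psmd9). These are among the lower genes of the set, and Psmg3, with 4.96 to 8.58 CPM over all libraries, had the lowest interval bound of the set at -0.53. Psmd9 shares 25.5% of its exon bases with Gm26745, an antisense long noncoding RNA, and whether counting used the strand is not given in the sources used here.

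All 5 activators had a log2 fold change below 0, with a median of -0.14, and none passed the test. Psme1, the PA28 alpha subunit, had 69.7, 68.4, 61.6 and 63.8 CPM in anti-CD115 glands and 70.3, 69.5, 86.4 and 67.8 CPM in isotype control glands. Psme2, the PA28 beta subunit, had 42.7, 44.5, 44.6 and 45.5 CPM in anti-CD115 glands and 45.5, 45.2, 57.3 and 47.8 CPM in isotype control glands. In both genes isotype control replicate 3 stood above the 7 other libraries, which lay close together. Without it, the log2 fold change of Psme1 was -0.07 in place of -0.16 ± 0.09 (SE), and that of Psme2 -0.06 in place of -0.14 ± 0.09 (SE). With each library left out in turn, Psme1 ran from -0.21 to -0.07 and Psme2 from -0.19 to -0.06, so values moved both ways.

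Psme2b followed Psme2, with 16.5 to 16.9 CPM in anti-CD115 glands and 15.6 to 23.1 CPM in isotype control glands, the highest again in replicate 3; the log2 fold change was -0.20 ± 0.12 (SE), and -0.10 without that library. Its coding sequence is 99.3% identical to that of Psme2 over 717 bases, so reads may be split between them and both values are uncertain to that extent. Psme3, the nuclear PA28 gamma, and Psme4 lay level between the groups, with log2 fold changes of -0.04 each. Psmf1, the inhibitor PI31, had 46.3, 47.7, 45.7 and 49.1 CPM in anti-CD115 glands and 49.8, 48.1, 48.8 and 47.7 CPM in isotype control glands, with a log2 fold change of -0.04 ± 0.07 (SE).

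Psmb10, the inducible catalytic subunit kept in the set, had the lowest log2 fold change, -0.21 ± 0.12 (SE; edgeR adjusted p = 0.579). It had 21.2, 19.1, 17.0 and 20.2 CPM in anti-CD115 glands and 20.3, 20.9, 27.2 and 21.3 CPM in isotype control glands. Without isotype control replicate 3 the value was -0.10, and with each library left out in turn it ran from -0.30 to -0.10. The other inducible subunits showed the same library: Psmb8 had 12.1, 10.1, 9.47 and 13.3 CPM in anti-CD115 glands and 13.7, 12.4, 17.9 and 12.9 CPM in isotype control glands, and Psmb9 had 6.94, 5.92, 6.01 and 7.52 CPM in anti-CD115 glands and 7.89, 8.35, 11.3 and 7.75 CPM in isotype control glands.

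For Psmb9 the groups did not overlap. Its log2 fold change was -0.42 ± 0.16 (SE), with an adjusted p of 0.402 in edgeR. Leaving out isotype control replicate 3 gave -0.28, and the range with 1 library left out was -0.50 to -0.28. For Psmb8 the log2 fold change was -0.35 ± 0.16 (SE), with an adjusted p of 0.483 in edgeR. Leaving out isotype control replicate 3 gave -0.20, and the range with 1 library left out was -0.45 to -0.20. Neither passed the adjusted threshold. Isotype control replicate 3 also had the highest summed macrophage markers, 374 CPM, and the highest summed level of 8 lymphocyte markers, 21.1 CPM, where anti-CD115 glands had 7.92 to 10.97 CPM and the other isotype control glands 10.5 to 16.3 CPM. Of the lymphocyte markers 5 were tested and 1, Ighm, fell. Their part in the levels of the inducible genes was not tested.

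**Figure D3:**
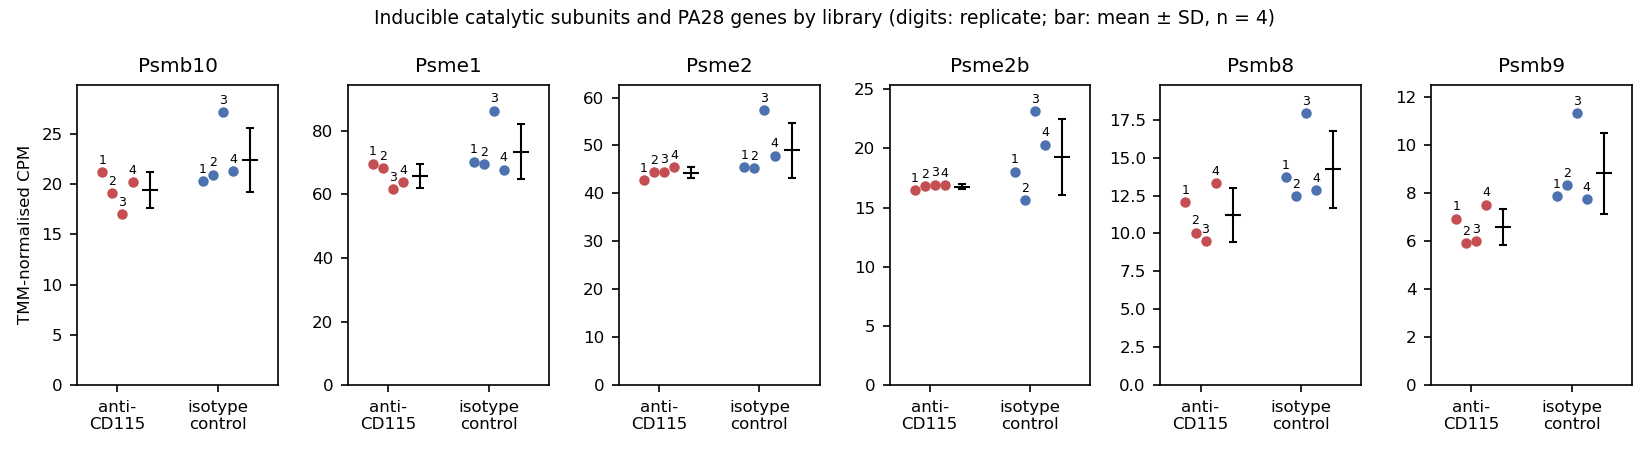
TMM-normalised CPM of the inducible catalytic subunits and the PA28 genes in each library, anti-CD115 left of isotype control, with 1 point per library and the group mean. In each panel the highest point is isotype control replicate 3, and its value for Psme1 is 86.4 CPM.

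Beside the set, 29 genes of the ubiquitin and proteasome pathway were read, Psmb8 and Psmb9 among them, and 0 passed the test. In 3 the unadjusted p was below 0.05, all lower in anti-CD115 glands, namely Psmb8, Psmb9 and Sem1, a small subunit of the lid; over all genes the share was 10.3%, so 3 of 29 is near the background. Sem1 had 53.9, 53.3, 52.3 and 48.7 CPM in anti-CD115 glands and 58.1, 56.5, 64.8 and 57.6 CPM in isotype control glands, without overlap, and a log2 fold change of -0.19 ± 0.08 (SE; edgeR adjusted p = 0.437). The groups also did not overlap for the ubiquitin shuttle genes Ubqln1 and Ubqln2, at log2 fold changes of 0.15 and 0.14. In all 4 of 29 genes were without overlap, against 5.77% of all genes.

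Nfe2l1, the transcription factor that raises proteasome genes when proteasome activity falls, had 439, 444, 429 and 444 CPM in anti-CD115 glands and 416, 443, 392 and 424 CPM in isotype control glands, overlapping, with a log2 fold change of 0.07 ± 0.07 (SE). Pomp, which matures the core, was at -0.16 ± 0.08 (SE; edgeR adjusted p = 0.535). Adrm1, a ubiquitin receptor of the base, was at -0.06 ± 0.10 (SE), and at 0.06 without isotype control replicate 3. The deubiquitinases Usp14 and Uchl5, which act at the regulatory particle, were at 0.14 ± 0.09 and -0.04 ± 0.11 (SE).

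The genes moved together between libraries within each group. For each gene the log2 level in a library was set against that gene's mean over the 8 libraries. In anti-CD115 replicates 1 to 4, 19, 41, 11 and 7 of the 46 genes lay above their own mean, and in isotype control replicates 1 to 4, 36, 6, 42 and 19 did. Over all genes the share above the mean was 50.2% to 51.9% in every library. TMM scaling keeps that share nearly even, so it does not show how other sets of genes move. The median deviation of the set was -0.02, 0.07, -0.05 and -0.07 in anti-CD115 replicates 1 to 4 and 0.06, -0.10, 0.13 and -0.01 in isotype control replicates 1 to 4, on the log2 scale. Each group thus held libraries high and libraries low for nearly the whole set, and the groups overlapped.

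In isotype control replicate 3, the 4 genes below their own mean were Psmd1, Psmd10, Psmd14 and Psmc3ip. That library was the lowest of the 8 for Psmd1, at 116 CPM, and for Psmd10, a chaperone of the base, at 12.2 CPM. The share of counts taken by growth hormone was 23% in isotype control replicate 3 and 18.2% in isotype control replicate 2, the library lowest for the set; in anti-CD115 replicate 2, also high for the set, it was 16.1%. The part of library composition in the joint movement was not tested.

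**Figure D4:**
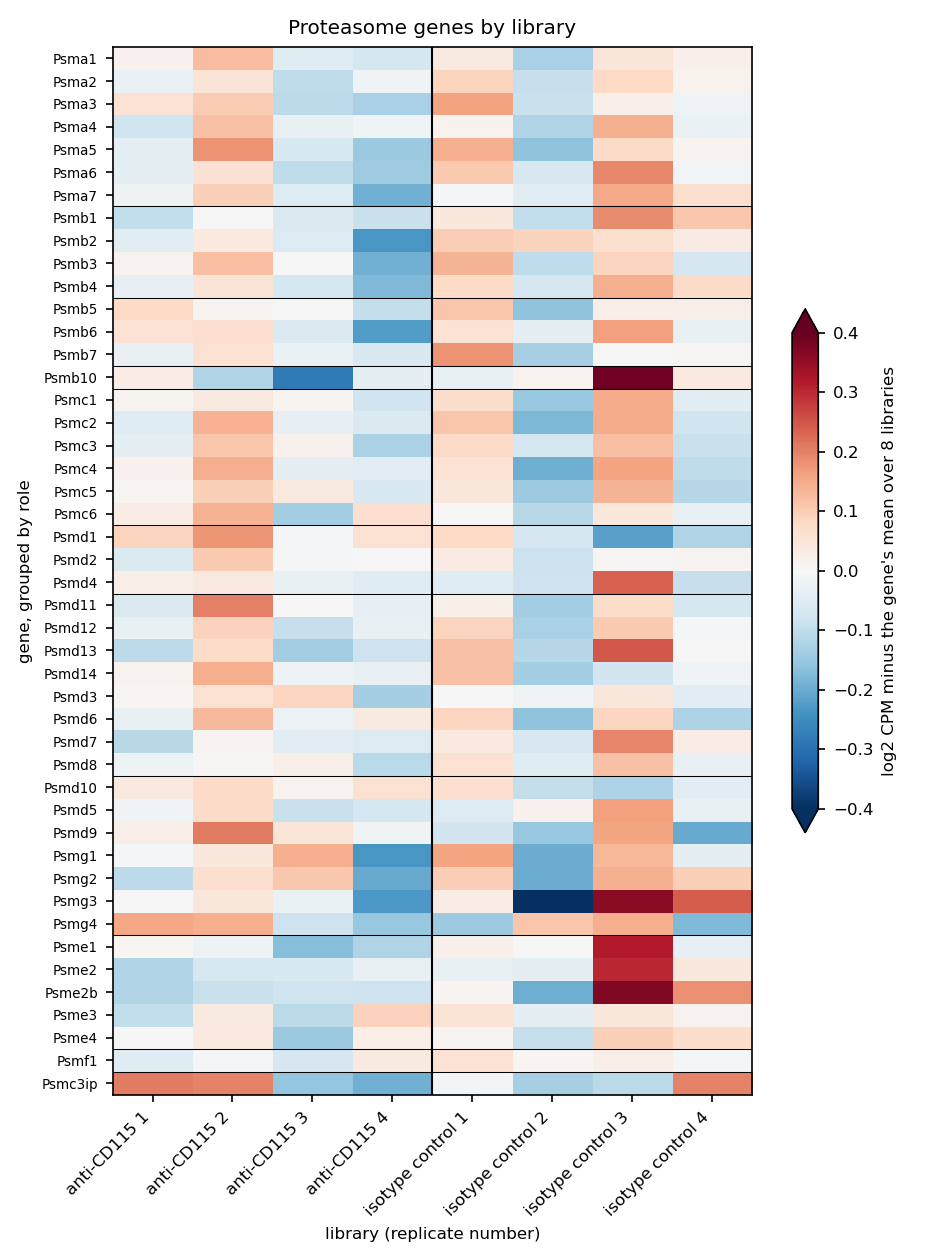
Deviation of each tested gene from its own mean over the 8 libraries, on the log2 scale, as a colour map with genes in rows by class and libraries in columns, anti-CD115 on the left. Anti-CD115 replicate 2 and isotype control replicate 3 are high for 41 and 42 of 46 genes, and isotype control replicate 2 is high for 6.

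The bases before the starts of the genes were also read. Whether any motif goes with the joint movement between libraries was not tested. The RefSeq tables for GRCm38.p6 gave a start for 40 of the 48 genes, with 2 starts each for Psma6, Psmc2 and Psme2. The 250 bases upstream of each start were searched on both strands. A gene was counted as holding a motif if any of its windows did. The 4 windows shown were chosen to cover a catalytic subunit, an ATPase, the ubiquitin receptor and a lid subunit, and to hold most of the motifs found. They are Psmc1 at chr12:100109952-100110201 (plus strand), Psmb5 at chr14:54617996-54618245 (minus strand), Psmd4 at chr3:95042615-95042864 (minus strand) and Psmd12 at chr11:107479278-107479527 (plus strand), each written 5′ to 3′ along the gene. Capitals mark a match to any of the searched motifs on either strand.
Psmc1: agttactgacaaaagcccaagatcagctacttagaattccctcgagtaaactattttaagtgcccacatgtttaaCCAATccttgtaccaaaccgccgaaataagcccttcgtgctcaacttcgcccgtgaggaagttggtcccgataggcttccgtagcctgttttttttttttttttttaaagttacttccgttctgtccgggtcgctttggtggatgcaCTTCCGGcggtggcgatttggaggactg
Psmb5: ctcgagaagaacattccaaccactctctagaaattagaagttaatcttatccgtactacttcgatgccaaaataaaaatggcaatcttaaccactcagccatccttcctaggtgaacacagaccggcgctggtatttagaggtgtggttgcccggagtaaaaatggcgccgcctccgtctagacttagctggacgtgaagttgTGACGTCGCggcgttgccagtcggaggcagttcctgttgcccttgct
Psmd4: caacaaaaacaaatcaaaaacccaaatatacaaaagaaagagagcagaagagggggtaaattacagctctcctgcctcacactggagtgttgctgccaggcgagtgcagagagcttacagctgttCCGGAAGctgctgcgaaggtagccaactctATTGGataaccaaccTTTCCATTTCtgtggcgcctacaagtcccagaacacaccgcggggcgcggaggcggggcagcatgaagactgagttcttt
Psmd12: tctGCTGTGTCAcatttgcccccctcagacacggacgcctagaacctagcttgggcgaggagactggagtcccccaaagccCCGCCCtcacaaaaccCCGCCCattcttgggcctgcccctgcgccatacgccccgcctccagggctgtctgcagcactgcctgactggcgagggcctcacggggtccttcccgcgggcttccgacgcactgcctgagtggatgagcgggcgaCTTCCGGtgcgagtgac

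The motif CCGGAAG, which ETS family factors bind, lay upstream of 13 of the 40 genes (32.5%). The share was 7.83% of all genes with a window and 13.9% of tested genes with a window. Neither of these backgrounds was matched to the set for level. This motif is in the Psmc1, Psmd4 and Psmd12 windows. For the other motifs the shares are given for the set, then for all genes and for tested genes. The GC box GGGCGG lay in 52.5%, against 35.4% and 61.6%, and CCAAT in 35%, against 37.5% and 39.7%. TGACNNNGC, the core of the antioxidant response element family to which Nfe2l1 binds, lay in 12.5%, against 11.5% and 13.9%, with Psmb5 and Psmd12 among them. TGACTCAGC, one spelling of that motif, lay in 0%, against 0.426% and 0.437%. In Psmb5 the match overlaps TGACGT, the core of the cyclic AMP response element, found in 10%, against 7.29% and 10.9%. TGACTCA, the AP-1 site, lay in 2.5%, against 5.16% and 4.07%, and TCTCGCGA in 2.5%, against 0.977% and 1.85%. TTCNNNGAA lay in 2.5%, against 8.13% and 7.07%. The interferon response element, searched as paired GAAA runs, lay in 7.5%, against 3.46% and 3.16%, in Psmb3, Psmd4 and Psmd9. A match is a run of letters and no measured binding.

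Sex, with 2 females and 6 males, gave no call in the set. Of 46 genes 0 passed the test and 0 had an unadjusted p below 0.05, against 0.491% and 9.09% of all genes, and DESeq2 called 0. The log2 ratio of female over male had a median of 0.02, with 31 of 46 above 0, against 49.8% of all genes. The largest was that of Psma3, an alpha subunit: the females had 71.4 and 76.9 CPM and the males 62.7 to 73.8 CPM, overlapping, with a log2 ratio of 0.14 ± 0.09 (SE; edgeR adjusted p = 0.711). Psmb5, Psmc3ip and Psmd1 followed at 0.13, 0.13 and 0.11. For the difference of the treatment effect between the sexes, with 1 female per group, 0 of 46 passed, against 0.0395% of all genes, and the smallest unadjusted p was 0.207.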

How the data were processed

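Whole pituitaries were sequenced by a stranded mRNA protocol starting at 100 ng, per the labels. HISAT2 2.0.5, featureCounts 1.5.0-p3, StringTie 1.3.3b and the build GRCm38 are named in the submitters' processing notes; their settings are not given in the sources used here. The deposited count table holds whole-number read counts per gene, not normalised. The deposited FPKM table divides them by gene length and a library size that lay within 1.58% of the TMM-scaled size.

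In R 4.3.3, edgeR 4.0.16 was fitted to all 8 libraries (filterByExpr on treatment, TMM, terms for sex and treatment, quasi-likelihood test), with Benjamini-Hochberg adjustment over 17723 genes and a threshold of 0.05. A further fit added sex by treatment. The procedure was tested on simulated data. Levels are TMM-normalised CPM or deposited FPKM. DESeq2 1.42.0, limma 3.58.1 on counts (voom) and on log2(FPKM + 1) and log2(FPKM + 0.1), other scalings and filters, a fit without sex, males only and each library left out were alternatives. Correlations of log2 CPM within groups were 0.975 to 0.991 across genes, and no library duplicated another of its group (chi-square per degree of freedom of 17.5 or more).

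The set and the lists were chosen with earlier results of these data known. Genes named are the 6 of smallest p, the catalytic and activator genes, Psmf1, Psmd2, Psmd4, Psmd14, 7 pathway genes, the highest and lowest level of each class, those that failed the filter and the 4 of largest sex difference; Sem1, Ubqln1 and Ubqln2 and genes named for shared exons, windows or single libraries were added after their values were seen. Of the genes, 48 were found in GENCODE M21, 13 share exon bases with another gene, and 5 share over 10%. Intervals and floors cover counting error or spread between these libraries only.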

Additional observations from a re-analysis of the deposited data

Results flagged for a closer look

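In groups of 4 libraries, the highest or lowest value was set against the gap to its neighbour with Dixon's test. Of 106 groups of 4 checked, 7 were past its 95% critical value of 0.829, where chance gives about 1 in 20. Of these, 4 were isotype control replicate 3 standing high: Psme1 at 86.4 CPM with the next at 70.3 CPM, Psmb10 at 27.2 CPM with the next at 21.3 CPM, Psmb9 at 11.3 CPM with the next at 8.35 CPM, and Psmd4 at 81.5 CPM with the next at 66.9 CPM. Isotype control replicate 2 stood low in Psma1, an alpha subunit, at 66.4 CPM with the next at 73.8 CPM, and Psmg2, a core assembly chaperone, at 10.9 CPM with the next at 13.3 CPM. Anti-CD115 replicate 2 stood high in Psmc2, an ATPase of the regulatory particle, at 101 CPM with the next at 89.8 CPM. The same libraries were high or low for most of the set.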

How the results depend on the processing

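The count of proteasome genes called for treatment was 0 under all 20 alternatives, and 0 for sex under all 17. At an unadjusted p below 0.05 it was 0 to 2 of 46 when 1 library was left out. The median log2 fold change of the set ran from -0.06 to 0.00 with 1 library left out and to 0.01 with library totals; without Psmc3ip or without Psme2b, both added after seeing the data, it stayed at -0.03.

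The count over all genes, 154, was 487 with no low-count filter, 268 with DESeq2, 91 with log2(FPKM + 1), 86 with log2(FPKM + 0.1), 0 with log2(FPKM + 1) and no filter (where 1 of the set had an unadjusted p below 0.05), and 89 to 120 with 1 library left out. Both fits with no filter test more genes. The causes of these changes were not tested. For sex the 87 genes ran from 33 to 601.

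Values near 0 changed sign. With library totals the log2 fold changes were 0.0021 for Psme3, 0.036 for Psmb5, 0.013 for Psmb7, 0.026 for Psmd4 and 0.0067 for Uchl5. Among males they were 0.0027 for Psme3, 0.0092 for Psmb5, 0.036 for Psmb7 and 0.0028 for Uchl5. Psmb5 was at 2.8e-06 with DESeq2, 0.0033 with log2(FPKM + 1), filtered or not, and 0.0034 with log2(FPKM + 0.1). With 1 library left out, Psme3 ran from -0.0748 to 0.0024, Psme4 from -0.0817 to 0.00044, Psmb5 from -0.0466 to 0.0191, Psmb7 from -0.0685 to 0.036, Psmd2 from -0.0121 to 0.0585, Psmd4 from -0.0481 to 0.0747, Adrm1 from -0.131 to 0.0554 and Uchl5 from -0.12 to 0.0099. The cause was not tested.

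Whether the replicate numbers pair the animals is not settled by the correlations of deviations between the groups. Same-numbered libraries gave 0.396, -0.121, 0.0612 and 0.306, and differently numbered ones -0.359 to 0.227. Replicate 1 is the female in each group. With the replicate block, 118 genes and 0 of the set were called, with 1 at an unadjusted p below 0.05, and the median of the set was -0.03. With 4 libraries a group and 1 female in each, small changes, low genes such as Psmg3 and any sex difference are bounded least.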
